A study of Mus musculus with 3 samples.

Results

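Gse1, the mouse gene ENSMUSG00000031822 on the plus strand of chromosome 8 (120228456 to 120581390 on GRCm38), was examined site by site in lists of 5-methylcytosine (m5C) in mRNA. It was chosen by its number of called sites in the 1-cell embryo list, the highest of any gene there, so that number and the other values of that library are a description. The 3 lists together held 49 distinct Gse1 sites among 40298 distinct sites in 8353 genes. RNA bisulfite sequencing (BS-seq) converts unmethylated cytosine (C), which is then read as T, and the m5C level of a site is the share of its reads that still show C. All animals were wild-type C57BL/6J mice, and the females were 7 to 8 weeks old per the labels. The germinal vesicle (GV) oocytes, arrested before meiotic resumption, were taken from ovaries 48 h after PMSG (serum gonadotrophin of pregnant mares) had been given at 10 IU. The metaphase II (MII) oocytes, which have matured and await fertilization, were taken from oviducts 12 h after 5 IU of human chorionic gonadotrophin (hCG) that followed 10 IU of PMSG. The 1-cell embryos came from mated females given 5 IU of PMSG and 5 IU of hCG, were flushed 24 h after hCG, and about 200 were collected. The methods of the study name another hCG dose for MII oocytes and 1 scheme for oocytes and embryos, so the doses are not settled. Each stage had 1 library of pooled cells, no value has a replicate check, and stage and library cannot be told apart. Where 3 values are given by stage, they run from GV over MII oocytes to embryos.

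GSE1 is a coiled-coil protein that copurifies with corepressor complexes holding the histone demethylase LSD1 (KDM1A), the scaffold CoREST and histone deacetylases. Full-grown oocytes make little new RNA, and maturation and the first hours after fertilization run largely on stored maternal mRNA. In mRNA, m5C is deposited by the methyltransferases NSUN2, whose sites tend to be followed by guanine (G), and NSUN6, whose sites lie in CUCCA or a close variant. A site was called Type II where it began CUCNA, with N any base, and Type I otherwise.

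Over all genes the called sites had 4475058 reads for GV oocytes, 5285011 for MII oocytes and 2616279 for 1-cell embryos, with medians of 121, 107 and 58 reads per site. Of 11 oocyte genes such as Gdf9 and Zp3, 6, 8 and 11 had a called site in the same order, as did 26.9%, 29.6% and 28.2% of all 22028 protein-coding genes. Of 7 granulosa and cumulus cell genes, none had one in the GV oocyte or the 1-cell embryo, and Cyp19a1 and Amh had 1 each in the MII oocyte, at 49 and 96 reads. Because only called sites are listed, a gene without a site need not lack RNA.

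The 10 Gse1 sites called at every stage are shown first, because the comparison of levels across the 3 libraries rests on them. Each line gives 21 bases of the plus strand of chromosome 8 (RefSeq copy of GRCm38, written as DNA), with 10 bases on either side of the site. The capitals mark the methylated C and the 4 bases after it, where the motifs of NSUN2 and NSUN6 are read.
120228605 (exon 1): ccgccacccgCCGGGactcgg
120229371 (exon 1): aaccctggccCGGCCccgctg
120229409 (exon 1): ggcgccgcctCCAGCcggccc
120229594 (exon 1): cgtgcagaagCAGGAgactcc
120562735 (exon 4): tcgtccccccCGGGGgtcaca
120568186 (exon 8): ggaactgcggCGGGAgagaga
120568204 (exon 8): agagcgagagCGGGAacggga
120568297 (exon 8): ggagcgcgagCGGGAgaagga
120569293 (exon 9): tgtccgagttCCGGCagcagg
120574249 (exon 13): acaaactcttCGAGGgacagt

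All 5 Type II sites follow, because they carry the NSUN6 motif, which none of the 10 sites above has. The last of them lies in the 3′ untranslated region (UTR).
120229269 (exon 1): atgcgcacgaCTCCAgcaagt
120229809 (exon 1): ccggcatggcCTCCAaggccc
120230352 (exon 1): ggcctgcagaCTCCAcgggcc
120562662 (exon 4): ccagtgtcctCTCCAgccacc
120580069 (exon 17): ctcaccccacCTCCAtgacta

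A further set shows 2 more sites of exon 8, where called C recur in a repeated sequence, and the adjacent pair in exon 1 of which the GV oocyte and the embryo lists held a different C.
120568198 (exon 8): ggagagagagCGAGAgcggga
120568252 (exon 8): ggagcgggagCGGGAgcagcg
120229204 (exon 1): gctgcccgaaCCGGAgcccga
120229205 (exon 1): ctgcccgaacCGGAGcccgag

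The sites were placed on the RefSeq model with the longest coding sequence (CDS), which has 17 exons, 8817 nt and a CDS of 5772 nt. Its exon 1 (chr8:120228501-120230718) is 2218 nt long, opens the CDS at 120228772, and is followed by an intron of 123271 nt. Exon 1 is in 3 of the 11 RefSeq models and 1 of the 7 GENCODE M21 transcripts of the gene, and reads of later exons can also come from transcripts without it.

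GV oocytes, MII oocytes and 1-cell embryos had 15, 25 and 39 called Gse1 sites. By this number Gse1 ranked 13 among genes in the GV oocyte, together with 6 others, and 5 in the MII oocyte, together with 2 others. In the 1-cell embryo list the next genes were Lama5 (38 sites), a laminin chain, and Ephb6 (32 sites), an ephrin receptor without kinase activity, and Gse1 was just inside the rule. The lead rested on sites of modest coverage. With at least 50 reads per site 28 embryo sites remained and Gse1 was still at rank 1, while with at least 100 reads 3 remained, at rank 549. Related to the 10351 nt of its exons, Gse1 had 1.45, 2.42 and 3.77 sites per kb in the order of the stages, and stood at rank 220 of 885, 91 of 1376 and 88 of 1897 genes with at least 5 sites.

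The called Gse1 sites had a median m5C level of 18.4% in GV oocytes (range 10.6 to 47.7%), 18.5% in MII oocytes (10.2 to 51.8%) and 25% in 1-cell embryos (10.3 to 65.9%), beside 19.5%, 19.8% and 23.8% over all called sites. Levels of 50% or more were seen at 0, 2 and 5 sites by stage. Adding the levels of the sites gives the mean number of m5C at called sites per transcript, if every site is present in every transcript. By stage this sum was 3.25, 5.57 and 11.7. The condition is not met by all transcripts, since exon 1 is in 3 of the 11 RefSeq models. The MII oocyte sum also includes 120488776, which lies outside the model. Each sum covers the sites of its own list, so the sums do not compare the same sites. The median coverage was 327 reads (66 to 2520), 271 reads (20 to 2417) and 68 reads (24 to 265), and sites under 50 reads numbered 0, 2 and 11. Where coverage is low, the minimum of 5 unconverted reads sets the lowest level that can be listed, and this bears on the embryo most.

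The unconverted rate of the transcript differed between the libraries as well. The rate that the authors used to test the Gse1 sites, recovered from their p-values, was 0.274%, 0.366% and 0.681% in the order of the stages. The medians over genes were 0.264%, 0.368% and 0.354%, and 85.5% of genes lay below Gse1 in the 1-cell embryo against 52.6% and 49.6% in the oocytes. Whether reads of the called sites count in this rate is not known, and the embryo list chose the gene by its many sites. The rate therefore cannot be read as incomplete conversion apart from m5C. All rates were far under the list minimum of 10%, and the part of incomplete conversion in the embryo-only sites was not tested.

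**Figure D1:**
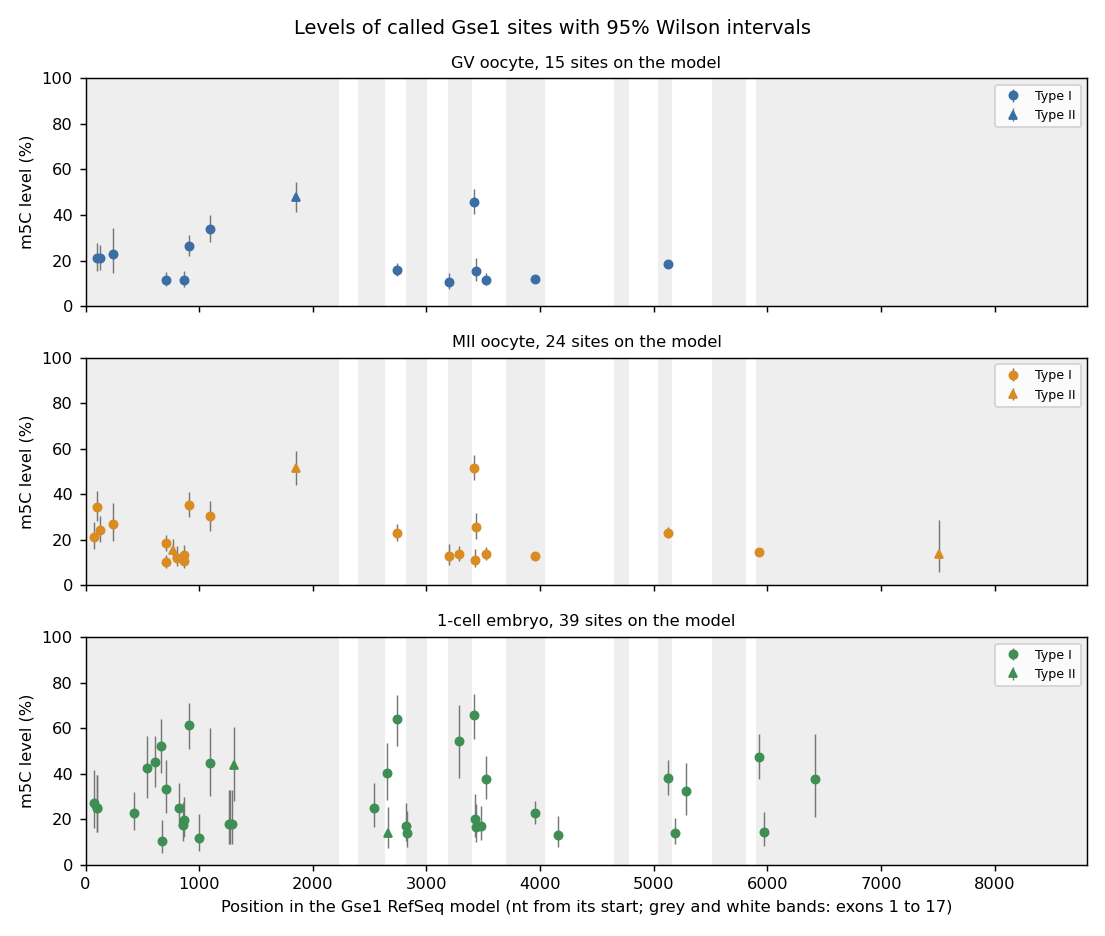
m5C level in percent (vertical axis) against position in the 8817 nt model (horizontal axis) in 3 panels, from GV oocytes to 1-cell embryos. Circles are Type I and triangles Type II sites, bars are 95% Wilson intervals (counting error only), and the 1 MII oocyte site outside the model is left out. Sites gather in exon 1 and exon 8 at each stage, and the embryo panel holds 39 sites with wider bars.

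Close to equal numbers of sites lay inside and outside exon 1, whose C are dense and rich in CpG. Exon 1 held 8 of the 15 GV oocyte sites (53.3%), 13 of the 25 MII oocyte sites (52.0%) and 19 of the 39 embryo sites (48.7%). Per 1000 C this gave 9.71, 15.8 and 23.1 sites, against 3.4, 5.34 and 9.7 in the later exons. The GC content of exon 1 was 71.4% and that of the later exons 58.1%, and C with 3 or 4 G among the next 4 bases made up 12.4% and 5.1% of their C. The median level in exon 1 was 21.8%, 21.2% and 25%, and elsewhere 15.3%, 14.3% and 23.8%. Coverage of the called sites ran the other way, with medians of 232.5, 205 and 59 reads in exon 1 and 591, 395.5 and 76 reads elsewhere. The coverage of uncalled C is not listed, so the part of coverage in the numbers of sites per C was not tested.

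Exon 8 had the most sites per C in both oocyte lists, with 3, 4 and 5 sites by stage or 37.0, 49.4 and 61.7 per 1000 C. Exon 4 had 1 site in each oocyte list and 5 in the embryo, or 12.8, 12.8 and 64.1 per 1000 C. The last exon, 2909 nt long, had 0, 2 and 3. By region, 12, 19 and 35 sites were in the CDS (80.0%, 76.0% and 89.7%, against 68.1%, 68.6% and 73.3% of all sites). The 5′ UTR had 3, 5 and 3 sites (20.0%, 20.0% and 7.69%, against 11.2%, 11.3% and 10.3% of all sites). The 3′ UTR held 0, 1 and 1 sites (all sites 18.7%, 18.1% and 14.6%). Both of these 3′ UTR sites overlap an exon of Gins2 on the other strand, and the library kit marks strand. With the GENCODE transcript of the longest CDS alone, which lacks exon 1, the CDS shares fell to 46.7%, 40% and 48.7%. A single MII oocyte site (120488776, 35.0% of 20 reads) lay outside the model, in an alternative exon 1 (chr8:120488447-120489151). It counts among the 5 MII oocyte sites of the 5′ UTR.

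**Figure D2:**
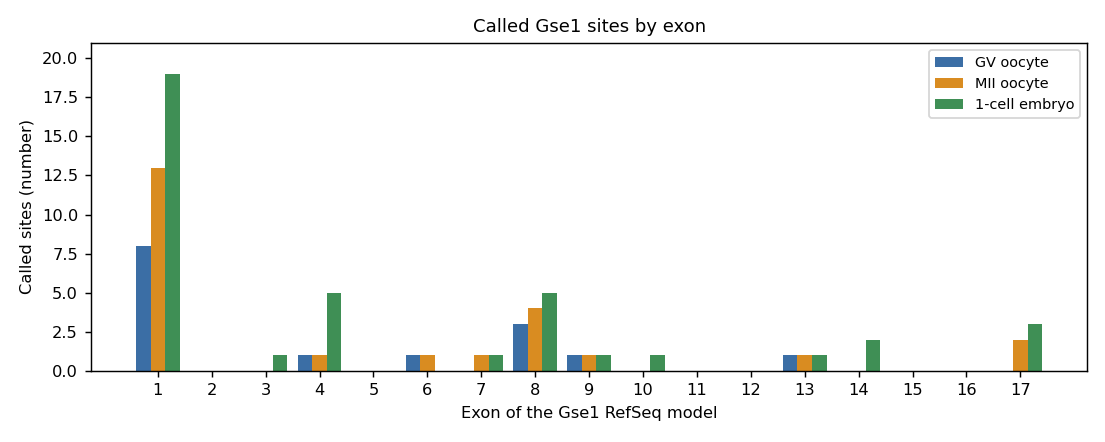
Number of called Gse1 sites (vertical axis) in each of the 17 exons of the RefSeq model (horizontal axis), with 1 bar per stage. Exon 1 holds 8, 13 and 19 sites (GV, MII, 1-cell), and exon 4 has 1, 1 and 5.

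The bases after the sites, shown in capitals above, were rich in G. Type I Gse1 sites had on average 2.57 (SD 0.852 over 14 sites), 2.55 (SD 0.858 over 22) and 2.14 (SD 0.887 over 37) G among the 4 bases after the C, in the order of the stages. All Type I sites averaged 2.23, 2.21 and 1.98, and all C of the Gse1 model 1.09. The share of C called in any list was 7.06 per 1000 with no G, 7.05 with 1, 26.0 with 2, 66.7 with 3 and 250.0 with 4, the last being 3 of 12 C. Of the 6 sites with no G, 5 were Type II, and outside CTCNA the share with no G was 1.23 per 1000, or 1 of 815 C. At the base directly after the site, G followed 50%, 57.1% and 54.1% of the Type I sites against 17.7% of all C of the model. Many Gse1 sites were thus CpG, with shares of 46.7%, 52.0% and 51.3% against 33.5%, 33.7% and 31.6% of all called sites.

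**Figure D3:**
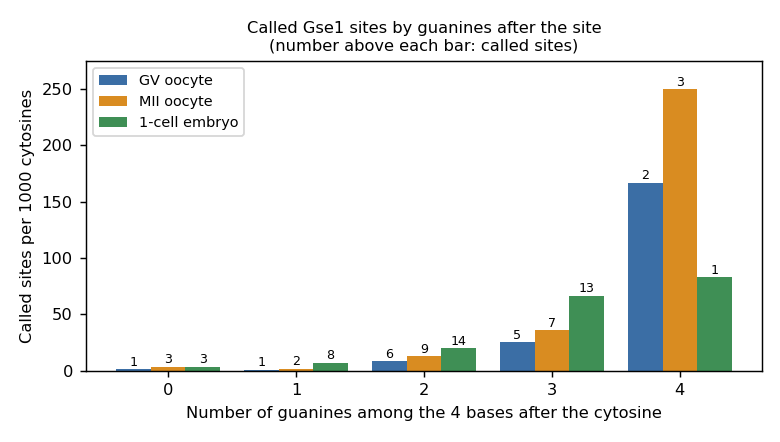
Called Gse1 sites per 1000 C (vertical axis) by the number of G among the 4 bases after the C (horizontal axis), with 1 bar per stage and the number of sites above it. In each list the share was lowest with 0 or 1 G, and the class with 4 G holds 12 C in all, so that its bars rest on 2, 3 and 1 sites.

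Exon 8 repeats one motif. Its codons 1049 to 1086 include 11 CGG codons among 38, and the letters CGGGA (given strand, not searched on the other) occur 13 times in the exon and 26 times in the model. Of these 26 C, 4 were called in any list, all in exon 8, at 120568186, 120568204, 120568252 and 120568297. Identical letters came with unlike levels. In the MII oocyte 120568186 stood at 51.8% of 328 reads (95% interval 46.4 to 57.2%), 120568204 at 25.7% of 214 reads (20.3 to 31.9%) and 120568297 at 13.8% of 542 reads (11.2 to 17%), and these intervals do not overlap. The site 120568252 was called in the embryo alone, at 17% of 94 reads.

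Type II sites were 1 of 15, 3 of 25 and 2 of 39 Gse1 sites in the order of the stages. Over all called sites on chromosomes, with bases read from the genome, the Type II share was 5.91%, 5.03% and 3.43%. All 5 distinct ones read CTCCA, of 25 such C and 37 CTCNA C in the model. The strongest, 120230352 in exon 1, had 47.7% of 222 reads (GV) and 51.5% of 163 reads (MII), the former being the highest Gse1 level in GV oocytes. It was not in the embryo list, whose nearest called site was 543 nt away with 32 reads, so the coverage at this C is unknown there. The 2 embryo Type II sites, 120229809 (43.8% of 32 reads) and 120562662 (14.0% of 57 reads), were in neither oocyte list. The other 2 were called in the MII oocyte alone, 120229269 at 15.4% of 272 reads and 120580069 at 13.9% of 36 reads. None of these 5 sites was thus called in both an oocyte and the embryo. Over all genes and both types, 40.7% of GV and 38.7% of MII oocyte sites were also in the embryo list. The share for Type II sites alone is not given, so the 5 sites cannot be set against it. In folds predicted from windows with 50 nt on either side, 58.3% of 48 called sites were paired, beside 56.3% of 2837 uncalled C of the model and 63.5% of the 865 uncalled C with 2 to 4 G after them. By stage the paired share of called sites was 53.3%, 41.7% and 64.1%. With windows of 61 nt it was 66.7%, 54.2% and 61.5%, so the order of the stages changed with the window. The called sites here pool both types. Of the 4 bases after the C, 62.5% were paired at called sites, 54.4% at uncalled C and 69.2% at uncalled C with 2 to 4 G. With windows of 61 nt these shares were 53.6%, 49.2% and 62.9%.

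The question of how methylation of the transcript differed between GV and MII oocytes can be tested on reads, since neither library was used to choose the gene. All 15 GV oocyte sites were also in the MII oocyte list (over all genes 81.4% of GV sites were), and they made up 60% of the 25 MII sites. At 14 of the 15 the level was higher in the MII oocyte, where 77.0% of all shared sites were higher. Each site was compared by a two-sided Fisher’s exact test on its C and T reads, with Benjamini-Hochberg adjustment over the 12954 sites shared by these lists, which compares the libraries and not the stages. The test called 4 of the 15 sites higher in the MII oocyte and 0 lower, while 19.6% of all shared sites were called higher and 0.965% lower. At an unadjusted p under 0.05 by the same test, 6 sites were higher and 0 lower. The share of all shared sites at this limit is not given, so the 6 cannot be set against the series. The median difference was 4.2 percentage points, beside 4.87 over all shared sites, so Gse1 stood near the series as a whole.

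The 4 called sites were spread over the transcript. In the 5′ UTR, 120228605 had 20.9% of 177 reads in the GV oocyte and 34.6% of 188 reads in the MII oocyte (adjusted p = 0.0288 by Fisher’s exact test). In exon 1, 120229204 had 11.4% of 421 and 18.5% of 459 reads (adjusted p = 0.0218 by the exact test). In exon 4, 120562735 had 15.7% of 591 and 22.9% of 463 reads (adjusted p = 0.0214 by the exact test). The last of the 4, 120574249 in exon 13, was the best covered of them, with 18.4% of 1504 and 23.1% of 1174 reads (adjusted p = 0.0182 by the exact test). At all 4 sites the 95% intervals of the 2 libraries did not overlap, as at 18.0% of all shared sites upward and 0.841% downward. Just past the threshold, 120568204 differed by 10.4 points (adjusted p = 0.0506) and 120229409 by 8.96 points (adjusted p = 0.068), both by the exact test. Among shared sites with at least 50 reads, 5 of the Gse1 sites were called, with 120568204 at an adjusted p of 0.0428 by the exact test. With at least 100 reads 6 were called, with 120568204 at 0.0339 and 120229409 at 0.0465 by the same test. The shares of all shared sites called at these read limits are not given. The only lower site was 120229594, at 33.7% of 243 reads and then 30.3% of 185 reads (adjusted p = 0.706, exact test). The site with most reads, 120569293, had 12.0% of 2520 and 12.9% of 2417 reads, a difference of 0.966 points (adjusted p = 0.568, exact test). With 1 library per stage and read copies not removed by molecular identifiers, these p-values cover counting error only. After the reads were divided by 5, as if each fragment had been copied, none of the 4 was called.

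Between the MII oocyte and the 1-cell embryo, values are given without a test, since the embryo list chose the gene. This comparison shares the MII library with the test above, and the 2 comparisons with the embryo share the embryo library. The lists shared 15 Gse1 sites, 60% of the MII sites and 38.5% of the embryo sites (38.7% and 32.1% over all genes). The level was higher in the embryo at 13 of the 15, with intervals apart at 8, and lower at 2 with overlapping intervals. Over all shared sites the level was higher at 83.8%, with intervals apart at 45.9% upward and 1.72% downward. The median difference was 14.5 points, beside 12.7 over all shared sites. The largest were in exon 4, exon 7 and exon 17. At 120562735 the level was 22.9% of 463 reads in the MII oocyte and 64.2% of 67 reads (95% interval 52.2 to 74.6%) in the embryo. At 120567852 it was 13.7% of 475 reads and 54.5% of 33 reads (38.0 to 70.2%). At 120578487 it was 14.7% of 1935 reads and 47.3% of 93 reads (37.5 to 57.4%). The lower ones, 120228605 and 120568204, differed by -9.57 and -9.03 points. The GV oocyte and the embryo shared 10 sites, 66.7% of the GV and 25.6% of the embryo sites (40.7% and 25.9% over all genes). All 10 were higher in the embryo, 6 with intervals apart. Over all sites shared by these 2 lists, 90.4% were higher, with intervals apart at 60.5% upward and 0.648% downward. The median difference was 15.4 points, beside 19.2 over all shared sites.

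Across the 10 sites of all 3 lists, the median level was 17%, 24.4% and 37.9% in the order of the stages. Over the 6145 such sites of all genes it was 21.6%, 28.1% and 45.5%. At 7 of the 10 Gse1 sites the value was higher at each step (67.4% of all sites in the 3 lists), and 120229594, 120228605 and 120568204 were the exceptions. The CGGGA site 120568186 had the highest level of these 10 in each library, at 45.9% of 327, 51.8% of 328 and 65.9% of 82 reads. The other sites changed order, and 120562735 went from place 6 in the GV oocyte to place 2 in the embryo. Only the first place was thus held by the same site in each library, and the places below it were mixed. In the embryo the intervals do not resolve that first place. They run from 55.1 to 75.2% at 120568186, from 52.2 to 74.6% at 120562735 and from 50.7 to 71.2% at 120229409.

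**Figure D4:**
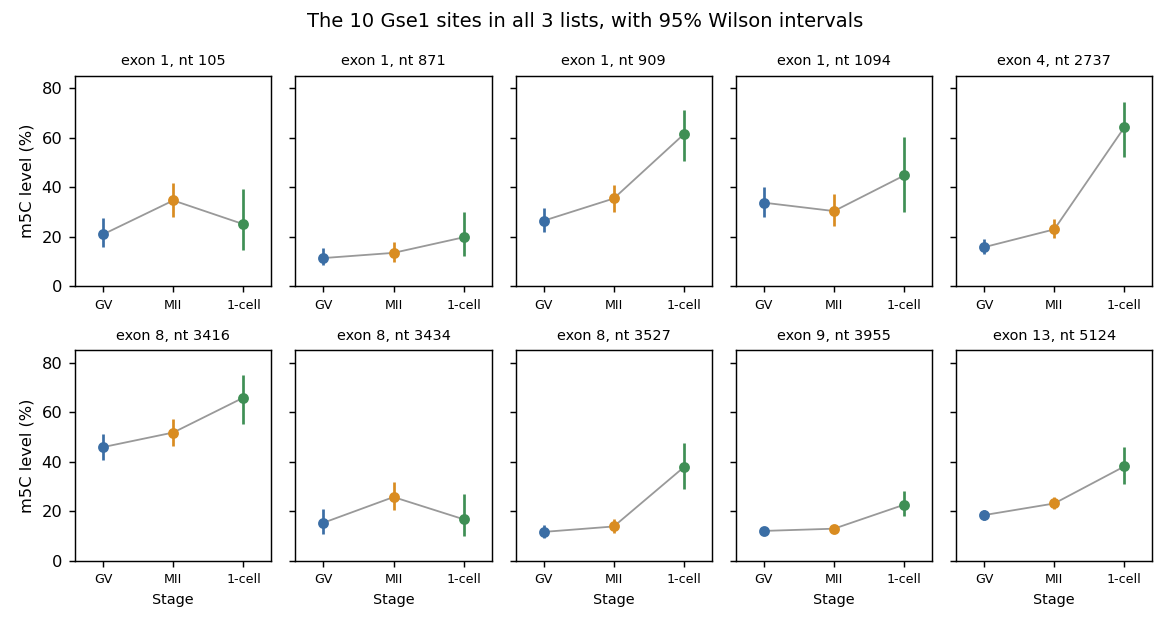
m5C level in percent (vertical axis) by stage (horizontal axis) for the 10 Gse1 sites in all lists, 1 panel each, named by exon and position in the model. Bars are 95% Wilson intervals (counting error only, 1 library per stage). Values are higher at each step in 7 panels, and nt 105 and nt 3434 of the model peak in the MII oocyte.

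The 24 sites called in the embryo alone made up 61.5% of its Gse1 sites (66.6% over all genes), and 13 were in exon 1. Their median level was 17.9% (10.3 to 52.3%) at a median of 66.5 reads, against 37.8% at 72 reads for the 15 embryo sites that an oocyte list also held. They had fewer G after the C, with a mean of 1.75 against 2.47. These means count both types, and the 2 Type II sites of the embryo, which have no G, are among the 24. At 5 of the 24 the level was at least 40%, namely 120229041, 120229110, 120229163, 120229809 and 120562652. Of the 24, 7 lay within 50 nt of a called MII oocyte site with 188 to 1935 reads. Among these, 120229163 stood at 52.3% of 65 reads and was 41 nt from an MII site with 459 reads, so MII reads were plentiful nearby, although the coverage at the C itself is not listed. Some nearby embryo sites, among them 120228605 of all 3 lists, had equal counts. At 120229762, 120229773 and 120229788, within 27 nt, each had 7 unconverted of 39 reads, and 120228603 and 120228605 each had 11 of 44, and whether the same molecules were counted was not tested.

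The adjacent C at 120229204 and 120229205, printed above, were called differently in each list. The former was called in the GV oocyte (11.4%) and the MII oocyte (18.5%) and not in the embryo. The latter was called in the MII oocyte (10.2% of 460 reads) and the embryo (33.3% of 60 reads). In all, 10 of the 25 MII oocyte sites were missing from the embryo list, 5 of them also GV oocyte sites. The embryo list thus held 60% of the MII oocyte sites of Gse1, against 38.7% over all genes.

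**Figure D5:**
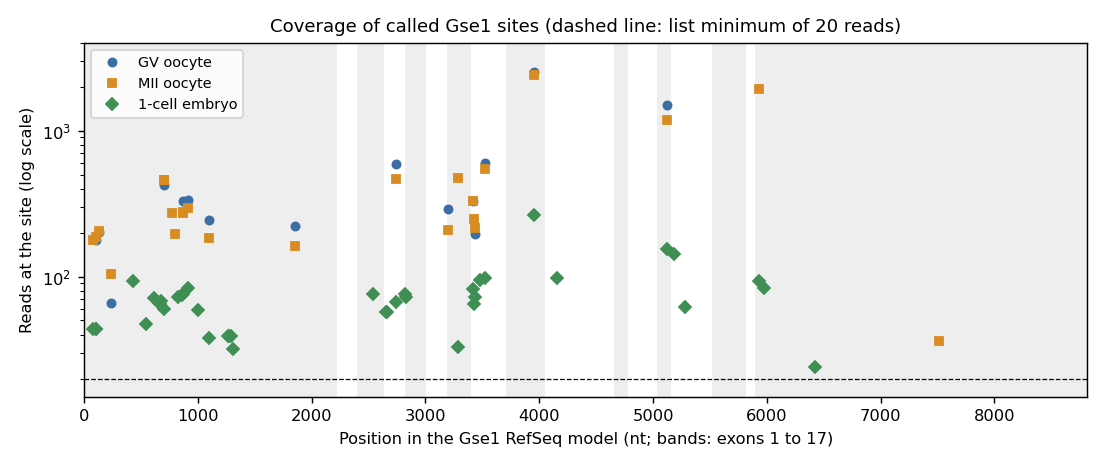
Reads at each called Gse1 site (vertical axis, log scale) against position in the model in nt (horizontal axis), with the list minimum of 20 reads as a dashed line. The embryo sites have 24 to 265 reads and those of the oocytes reach 2417 and 2520, and in the oocytes the sites of exon 1 lie at 66 to 460 reads.

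The genes whose numbers of sites in the 3 lists were nearest to those of Gse1 were Mn1 (19, 30 and 29 sites), Tet3 (16, 18 and 29) and Lama5 (23, 34 and 38), with distances of 0.583, 0.62 and 0.726 on log2(number + 1) over the 3 stages. Mn1 is a transcriptional regulator and Tet3 the dioxygenase that oxidizes 5-methylcytosine in DNA of the zygote.

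Of 11 genes of the LSD1-CoREST-HDAC corepressor, 7, 6 and 5 had a called site in the order of the stages, with 20, 19 and 32 sites, beside the 26.9%, 29.6% and 28.2% of all protein-coding genes. Rcor1, which encodes CoREST, had the most, with 6, 7 and 16 sites, and at 111114199 of chromosome 12 in its 3′ UTR the level was 74.0% of 131, 61.7% of 141 and 100.0% of 26 reads. Kdm1a, the demethylase itself, had 2, 2 and 6 sites, and 136602317 of chromosome 4 stood at 43.1%, 35.8% and 42.4%. Rcor2, a CoREST paralog, had 5 and 3 sites in the oocytes and none in the embryo. The zinc-finger genes Zmym2 and Zmym3 had 1, 1 and 2 and 1, 2 and 5 sites, Hmg20b had 4, 4 and 3, and the deacetylase Hdac2 had 1 site in the GV oocyte. Rcor3, Hdac1, Phf21a and Gtf2i had none in any list. These levels were not tested.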

How the data were processed

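The members and the gene lists were chosen with earlier results of these data known. The authors deposited a count of C and T reads per site (coverage), the m5C level as a fraction, given here in percent, and a p-value, one-sided and binomial, for the unconverted reads given the rate in the same gene. Per the methods of the study, reads were trimmed with cutadapt and Trimmomatic, mapped with HISAT2 to a converted genome, with Bowtie2 used on a converted transcriptome for what was left, and sites needed at least 20 reads, a level of 10%, at most 3 unconverted C per read, a signal ratio of 0.9 and p under 0.001. All deposited sites also had at least 5 unconverted reads. The labels name polyadenylated RNA and the methods RNA depleted of ribosomal RNA. The conversion text of the labels is longer for the oocytes than for the embryo.

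Unconverted reads were the level times the coverage, whole to within 2.9e-05 reads. Sites were placed in GENCODE M21 transcripts (order CDS, 5′ UTR, 3′ UTR, other exon) and on the RefSeq model, both on GRCm38. Intervals are 95% Wilson intervals and, like the tests, cover counting error only. Fisher’s exact tests used scipy 1.17.1 and folds RNAfold of ViennaRNA 2.7.2 at 37 °C. The unconverted rate of the gene is the rate at which the binomial test returns the deposited p-value. Python 3.11.15, numpy 2.4.6, pandas 2.3.3, pysam 0.24.0, biopython 1.88 and matplotlib 3.10.9 were used, and the statistics were tested on simulated data. Sites were named singly if called in all lists, highest in level or coverage, past the GV against MII test, or with the largest difference, and other sites and the repeated motif were chosen after their values were seen. Genes were the next by number of sites, the nearest in numbers, and fixed lists. The corepressor list is given without 1 gene, which is not reported here. Other limits on coverage and level, thinning to 20 reads, reads divided by 5, other transcripts and a fold window of 61 nt were tried.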

Additional observations from a re-analysis of the deposited data

How the results depend on the processing

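No paired analysis was possible because each stage had 1 library. With at least 50 reads, the CDS share of embryo sites was 100.0%, its 5′ and 3′ UTR shares 0.0% and the 3′ UTR share of MII oocyte sites 0.0%. With at least 100 reads, Gse1 ranked 5, 3 and 549 in the order of the stages, and 3 embryo sites were left, 2 shared with each oocyte list and 2 in all lists. The embryo CDS share was then 100.0%, and its UTR shares and the MII 3′ UTR share were 0.0%. With levels of at least 20%, the lists held 7, 12 and 24 Gse1 sites, the embryo rank was 2, the medians were 28.6% (MII) and 37.9% (embryo), the MII 5′ and 3′ UTR shares 41.7% and 0.0%, the shared sites 7 (GV and MII), 7 (MII and embryo), 4 (GV and embryo) and 4 (all lists), and 1 site was called higher in the MII oocyte. Thinned once to 20 reads, the lists held 7, 11 and 24 sites, the embryo rank was 2, the medians were 35.0% (MII) and 40% (embryo), the MII 3′ UTR share 0.0%, the shared sites 5, 5, 3 and 2 in the same order, the median difference between MII and GV oocytes 0.0 points, and 0 sites were called. The difference at 120230352 turned to -5.0 points there. The embryo rank comes from the numbers that chose the gene, and thinning drew only from sites already called. The rank after thinning is therefore a description and does not show what fewer reads would have called. With 20 reads, levels move in steps of 5 points. With reads divided by 5, 0 sites were called. In the GENCODE transcript of the longest CDS alone, the CDS shares were 46.7%, 40% and 48.7% and the 5′ UTR shares 0.0%, 4.0% and 0.0%, since it lacks exon 1. With the RefSeq model alone, added after seeing the data, and with CUCCA as the only Type II motif, no share or count moved beyond its interval. With windows of 61 nt, 49.9% of uncalled C were paired, 56.2% of called sites and 56.4% of uncalled C with 2 to 4 G, and the share of the sites in all lists went from 50% to 70.0% on 10 sites. Over all alternatives together, 100 counts, ranks, shares, medians and means stayed within 1.5 times (counts and ranks) or within the interval of the first value (the rest), which is wide for small numbers of sites, and 49 did not. For the lost calls in lists with fewer reads or sites, the smaller numbers follow from the settings themselves, and for the other shifts the cause was not tested.

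With 1 library per stage, and lists of called sites without the coverage of uncalled C, a site missing from the embryo list cannot be told to be unmethylated, below the limits or not covered. The embryo had 68 reads at its median Gse1 site, so that its levels are known less closely than those of the oocytes.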
